A study of Mus musculus with 6 samples.

Results

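The genes of the cytosolic ribosomal proteins encode the protein part of the ribosome, and their promoters were examined in ATAC-seq data from mouse muscle nuclei. Members were the intervals of the count table with their midpoint within 1 kb of a transcription start site (TSS) of a protein-coding gene whose name starts with Rpl or Rps and a digit or is Rplp0, Rplp1, Rplp2 or Rpsa, without the Rps6k kinases and names containing -ps (GENCODE vM1 on mm9). Of 39768 intervals, 181 (0.455%) met this rule. They belong to 76 of the 85 genes that the names select, 47 of 51 of the large (60S) subunit, 28 of 33 of the small (40S) subunit, and Rps19bp1, which encodes a protein that binds Rps19 and is no ribosomal protein itself. No interval lay within 1 kb of a TSS of 9 genes, among them Rpl3, Rpl10l, Rpl15, Rpl39l, Rps4y2, Rps21 and Rps29. This says only that the table analysed here lists none there, and is no measurement of closed chromatin. The methods speak of more intervals than this table holds, and any others were not analysed here. Rpl41 has no gene of that name in the annotation and was not analysed here.

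ATAC-seq counts the cuts that the Tn5 transposase makes in exposed DNA, so the number of fragment ends in an interval measures how accessible its chromatin is. The study examined the part that the histone variant H2A.Z, which marks the nucleosomes beside active promoters, plays for transcription in muscle fibres that no longer divide, and accessibility was one of its readouts. The 3 CTL libraries came from C57BL/6 mice homozygous for floxed alleles of both H2A.Z genes, H2A.Z-1 flox/flox and H2A.Z-2 flox/flox, without Cre, and the 3 H2A.Z dKO libraries from mice with the same alleles that carry HSA-Cre. All were 7 weeks old, and 50000 nuclei of muscle (tibialis anterior in the labels, hind limb muscles in the methods) went into each library. HSA-Cre is driven by the human skeletal actin promoter and acts in post-mitotic muscle fibres, so it is not directed at the alleles of other cell types in the muscle, such as endothelial cells, fibroblasts and macrophages. Nothing in the labels says that the libraries came from separate mice, so p-values measure the spread between libraries.

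Each ribosome holds 1 copy of nearly every ribosomal protein, and the cell makes them in step from genes scattered over the chromosomes. Their promoters are known as short, constantly active regions with a sharp start in a tract of pyrimidines, which in the mRNA becomes the TOP motif through which mTOR and Larp1 govern translation, and many carry sites of ETS factors such as Gabpa or of YY1 in place of a TATA box. Introns of many of these genes also hold small nucleolar RNAs (snoRNAs), which guide the chemical modification of ribosomal RNA.

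The 5 windows below show 3 of the sequence elements that were searched, and the muscle paralog Rpl3l. Each runs from 250 bases before to 50 bases after the annotated TSS nearest to the interval with the most counts, on the gene strand of mm9, with the letters CCGGAAG (ETS core; CTTCCGG where it lies on the other strand), AAGATGG (YY1 core) and TATAAA (the letters of a TATA box) in capitals. Rplp0, on the plus strand at chr5:116009226-116009525, holds TATAAA with its first base at position 18, counted from 1 at the annotated TSS, which is downstream of that start. Rps6, on the minus strand at chr4:86503267-86503566, and Rpsa, on the plus strand at chr9:120036634-120036933, each hold an ETS core. Rps26, on the minus strand at chr10:128063513-128063812, holds an ETS core and a YY1 core, and Rpl3l, on the plus strand at chr17:24869380-24869679, holds none of these letters. The other motifs searched are not marked. The start used for Rpl3l lies inside the gene (24869630), downstream of its first annotated start (24864774), so its window is not that of the first start.
Rplp0: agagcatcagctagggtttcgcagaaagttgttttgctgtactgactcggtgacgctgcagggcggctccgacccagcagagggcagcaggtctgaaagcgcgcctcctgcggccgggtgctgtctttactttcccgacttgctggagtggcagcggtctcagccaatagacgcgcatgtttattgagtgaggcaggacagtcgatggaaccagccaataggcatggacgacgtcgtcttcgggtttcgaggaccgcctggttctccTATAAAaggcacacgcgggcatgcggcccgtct
Rps6: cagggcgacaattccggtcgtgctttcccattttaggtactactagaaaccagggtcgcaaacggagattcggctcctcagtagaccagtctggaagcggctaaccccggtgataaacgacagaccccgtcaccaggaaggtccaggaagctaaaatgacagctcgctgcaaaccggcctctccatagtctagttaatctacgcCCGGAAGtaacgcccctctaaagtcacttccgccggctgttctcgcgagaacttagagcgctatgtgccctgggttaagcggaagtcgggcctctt
Rpsa: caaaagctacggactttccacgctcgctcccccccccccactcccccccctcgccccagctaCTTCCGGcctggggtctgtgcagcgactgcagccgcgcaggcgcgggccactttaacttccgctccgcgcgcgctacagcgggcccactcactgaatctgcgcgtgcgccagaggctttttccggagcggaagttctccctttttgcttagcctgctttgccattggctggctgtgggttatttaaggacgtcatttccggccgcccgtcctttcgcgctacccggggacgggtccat
Rps26: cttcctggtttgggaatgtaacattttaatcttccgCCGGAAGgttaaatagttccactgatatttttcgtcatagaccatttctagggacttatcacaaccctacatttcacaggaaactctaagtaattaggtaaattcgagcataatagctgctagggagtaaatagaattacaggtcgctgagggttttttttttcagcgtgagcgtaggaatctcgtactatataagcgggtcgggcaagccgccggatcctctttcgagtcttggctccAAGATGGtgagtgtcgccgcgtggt
Rpl3l: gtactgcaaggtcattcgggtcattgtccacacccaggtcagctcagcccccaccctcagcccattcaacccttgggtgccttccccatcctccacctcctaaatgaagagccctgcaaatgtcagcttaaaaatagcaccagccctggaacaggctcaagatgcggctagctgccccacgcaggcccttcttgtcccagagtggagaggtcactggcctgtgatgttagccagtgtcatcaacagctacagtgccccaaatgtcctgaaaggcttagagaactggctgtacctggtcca

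All motifs were searched on both strands of such windows in 76 ribosomal protein genes and 10904 other protein-coding genes with an interval within 1 kb of a TSS. The ETS core was present in 28 ribosomal protein genes (36.8%) against 19.8% of the other genes, among them Rps6, Rpl31, Rpl32, Rpl11, Rplp1 and Rplp2. TATAAA was found in 9 genes (11.8%) against 5.48%, and AAGATGG also in 9 genes (11.8%) against 7.47%. GGGCGG, the core of the Sp1 site, was less common than elsewhere, in 41 genes (53.9%) against 70.2%. CGCATGCG (NRF1) was present in 2 genes (2.63%) against 4.05%, and the E-box CACGTG in 7 genes (9.21%) against 10.5%. The ETS and YY1 cores can overlap by the letters AAG. A match is a description, no binding was measured here, and the shares were not tested.

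**Figure D1:**
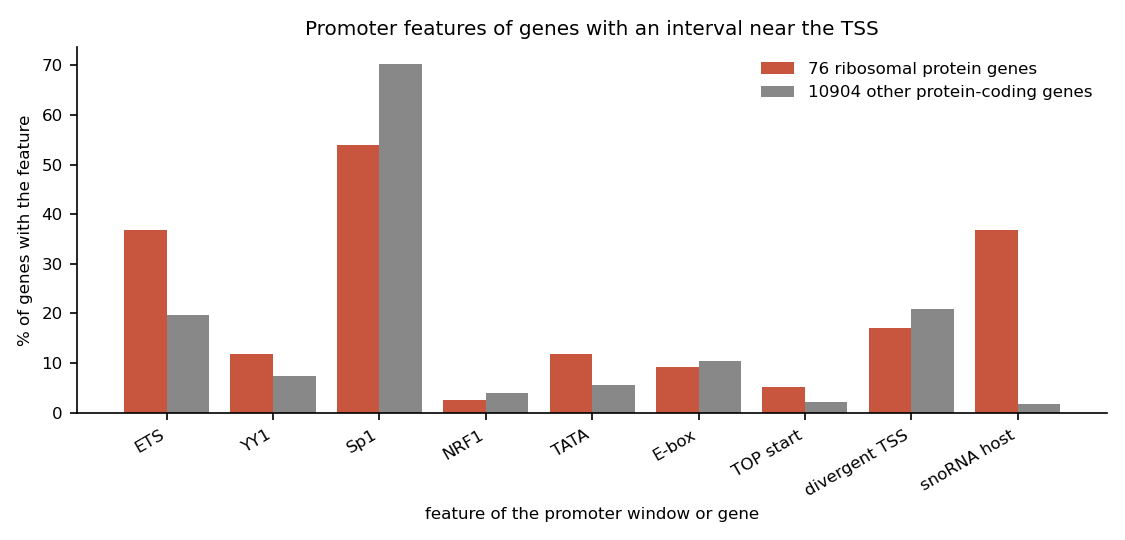
Share of genes (%) with each feature, for 76 ribosomal protein genes (red bars) and 10904 other protein-coding genes with an interval near the TSS (grey bars); motifs were searched from 250 bases before to 50 after the TSS. The ETS core and the snoRNAs were more common in the ribosomal protein genes (36.8% each) than in the others (19.8% and 1.74%), and the Sp1 core was less common (53.9% against 70.2%).

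A TOP start, scored as a C at the annotated first base followed by 4 pyrimidines, was present in 4 of these 76 genes (5.26%), among them Rpl5, Rpl14 and Rpl32, against 2.11% of the others. The score depends on where the annotation places the first base. At the RefSeq starts of GRCm38.p6, which hold 63 of the member genes, it was met by 13 (20.6%) against 2.97% of 26962 other genes, and a tract of this kind lay somewhere from 10 bases before to 15 bases after the start in 39 (61.9%) against 34.3%. In 28 of the 76 genes (36.8%) an annotated snoRNA lies within the gene, up to 5 in Rpl4, against 1.74% of the other genes. The TSS of 13 genes (17.1%) faces that of a divergent gene, such as Mgat2 beside Rpl36al, Lias beside Rpl9, Zwilch beside Rpl4 and Rab13 beside Rps27, and this share was 21.0% in the other genes. For 20 of the 181 intervals the nearest TSS of any gene was that of another gene, so their counts cannot be given to the ribosomal protein gene alone.

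Most members were small pieces of one accessible promoter. Of the 76 genes, 14 had 1 interval and 62 had more, up to 9 at Rpl7, and 33 of the 181 intervals overlap another member, and a fragment end in the stretch that both cover is counted for each. The interval with the highest mean count over the 6 libraries is called the lead interval of its gene. The lead intervals were 38 bp (Rpl36) to 808 bp (Rps19) wide, 69 of 76 covered an annotated TSS, and their midpoint lay at a median of -38.2 bp from it, which is upstream. Their median GC content was 60.6% against 65.8% in the lead intervals of other protein-coding genes, and their median ratio of observed to expected CpG was 0.876 against 0.810. In the member intervals, 56.9% ± 0.365 (SD, n = 3) of the counts in CTL fell in those centred less than 100 bp before the TSS, against 39.9% ± 0.132 (SD, n = 3) in other promoter intervals. In the libraries labelled H2A.Z dKO these shares were 56.4% ± 2.03 (SD, n = 3) and 39.6% ± 0.869 (SD, n = 3), so the 2 groups differed by less than the spread between H2A.Z dKO libraries. Intervals from 200 to 100 bp upstream made up 8.72% ± 0.140 (SD, n = 3) in CTL, below the 16.2% ± 0.0283 (SD, n = 3) of other promoters. Of the 10 intervals more than 500 bp upstream, 4 are overlapping intervals of Rpl7, and the 10 together made up 6.24% ± 0.170 (SD, n = 3) in CTL.

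**Figure D2:**
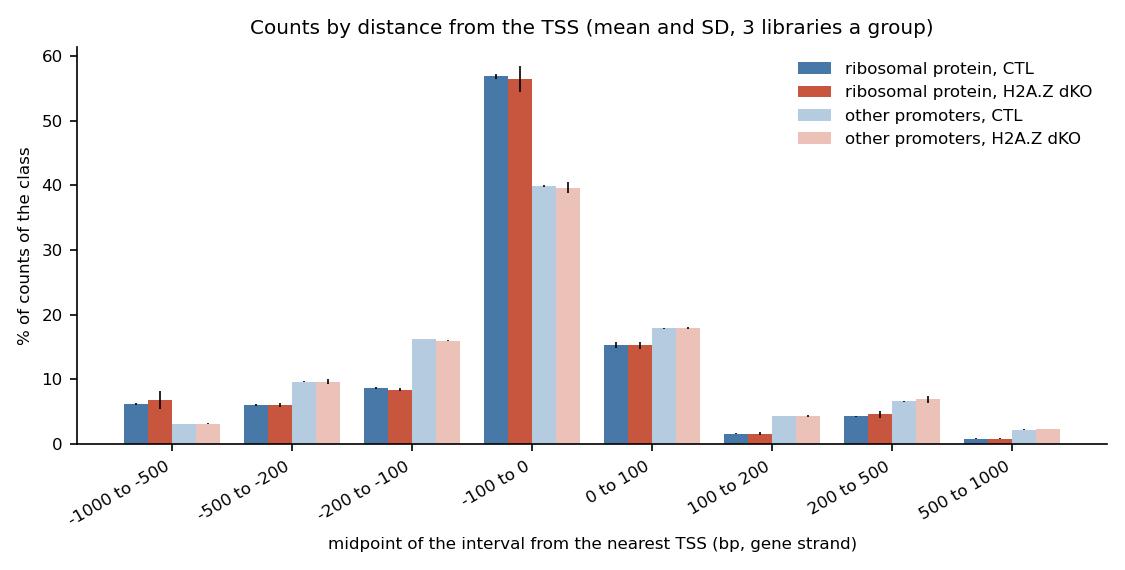
Share of the counts of each class (%, bars are means and whiskers SD over 3 libraries) by the distance of the midpoint of the interval from the TSS (bp, negative is upstream), for ribosomal protein intervals (dark) and other protein-coding promoter intervals (pale) in CTL (blue) and H2A.Z dKO (red). Intervals centred less than 100 bp upstream of the TSS, which can reach beyond it, hold 56.9% of the ribosomal protein counts in CTL and 56.4% in H2A.Z dKO, against 39.9% and 39.6% in other promoters.

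The level of accessibility was given as RPKM, which scales the counts to the width of the interval and to the total that the library has in its intervals. The study counted extended fragment ends, so this scale raises narrow intervals most, and levels at unlike widths are not strictly comparable. The median over the 76 lead intervals was 153 ± 0.749 RPKM (SD, n = 3) in CTL and 159 ± 4.46 RPKM (SD, n = 3) in H2A.Z dKO, against 139 ± 1.23 (SD, n = 3) and 137 ± 1.44 (SD, n = 3) in the lead intervals of other protein-coding genes. The ribosomal protein genes had the higher median in 6 of 6 libraries. Among the 74 of them shown by name the level ran from 72.0 to 282 RPKM (mean of 6 libraries), a range of 3.91-fold, and over all 76 it was spread with 25% of the genes below 126 and 25% above 188 RPKM. The coefficient of variation between libraries was small beside that range, with a median over the genes of 7.02% in CTL and 9.64% in H2A.Z dKO. Genes of the large subunit had a median of 153 ± 1.14 RPKM (SD, n = 3) and those of the small subunit 161 ± 9.31 RPKM (SD, n = 3) in CTL, a difference within the spread of the small subunit. Over all 181 intervals the median was 138 ± 1.86 RPKM (SD, n = 3) in CTL and 141 ± 9.01 RPKM (SD, n = 3) in H2A.Z dKO, and in the nearest comparable families the CTL median was 127 ± 2.40 RPKM and the H2A.Z dKO median 126 ± 2.07 RPKM (SD, n = 3) for 151 intervals of mitochondrial ribosomal protein genes, and 135 ± 3.97 and 140.3 ± 4.57 RPKM (SD, n = 3) for 101 intervals of proteasome genes. The proteasome median was above that of the members in H2A.Z dKO replicates 2 (136 against 134 RPKM) and 3 (139.6 against 137 RPKM) and below it in the other 4 libraries.

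**Figure D3:**
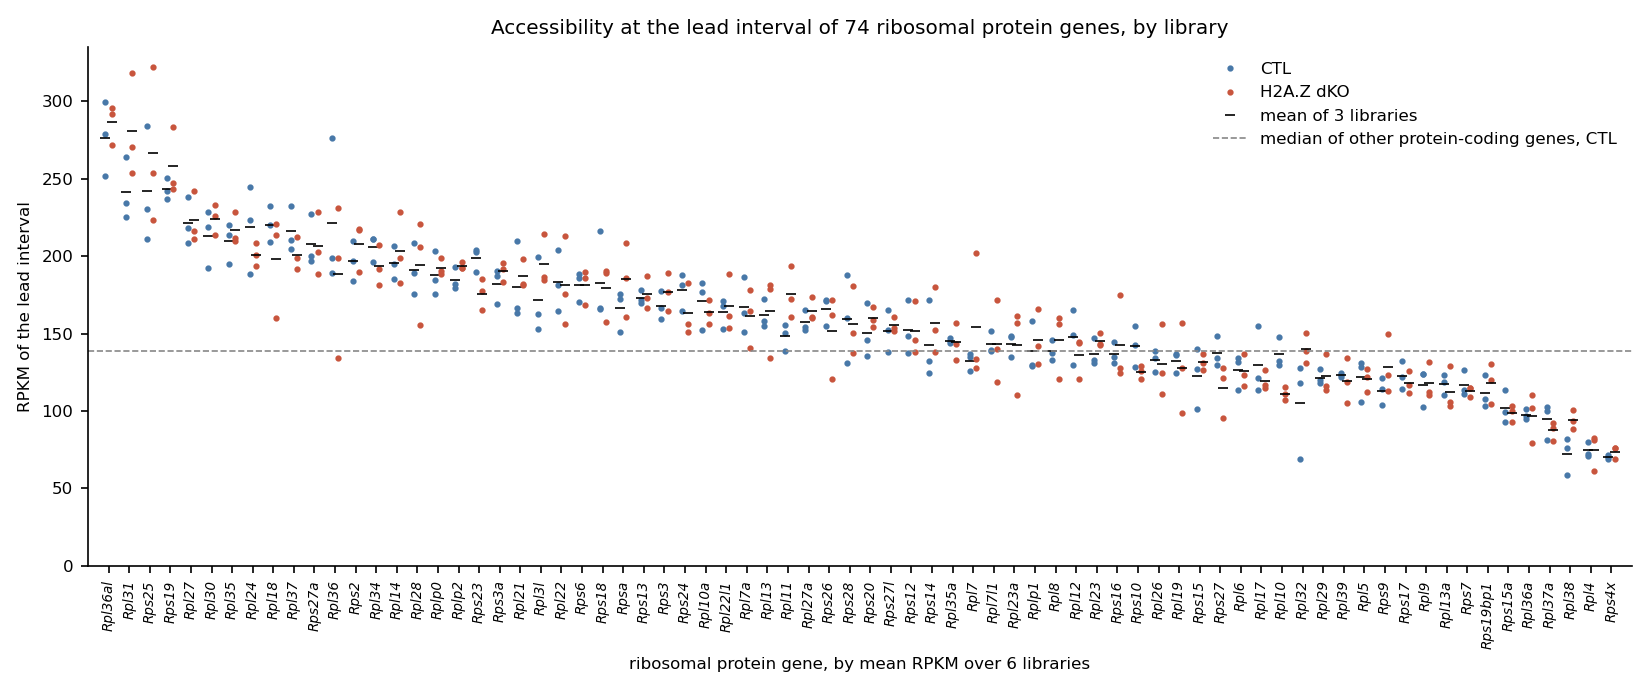
RPKM of the lead interval of 74 of the ribosomal protein genes, ordered by the mean over 6 libraries; blue points are CTL and red points H2A.Z dKO libraries, black dashes are the means of 3 libraries, and the dashed line is the median of the lead intervals of other protein-coding genes in CTL. Levels run from 72.0 RPKM at Rps4x to 282 RPKM at Rpl36al, and 48 of 74 genes have a CTL mean above the dashed line at 139 RPKM.

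Among the most accessible promoters was that of Rpl36al, a paralog of the X-linked Rpl36a, with 300, 279 and 252 RPKM in CTL replicates 1, 2 and 3 and 292, 296 and 272 RPKM in H2A.Z dKO replicates 1, 2 and 3 (chr12:70284953-70285269), an interval that also covers the start of Mgat2. Rpl31, a protein near the exit of the peptide tunnel, had 264, 226 and 234 RPKM in CTL and 318, 254 and 270 RPKM in H2A.Z dKO (chr1:39424518-39424836), and its log2 fold change of 0.22 (SE 0.12, 95% CI -0.03 to 0.47) was one of the 4 with the smallest p among those above 0. Without H2A.Z dKO replicate 1 it was 0.09. For Rps25, a small subunit protein that some viral RNAs need to bind ribosomes, the lead interval lay 354 bp upstream of the TSS and nearer to that of Trappc4 (chr9:44215356-44215530), with 231, 284 and 211 RPKM in CTL and 322, 224 and 254 RPKM in H2A.Z dKO. In all 3 genes the ranges of both groups overlapped.

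At the lower end stood Rps4x, the X-linked gene of a small subunit protein, with 68.8, 71.6 and 70.3 RPKM in CTL and 75.9, 76.2 and 69.0 RPKM in H2A.Z dKO (chrX:99384611-99384812). Rpl4, whose protein lines the peptide tunnel, had 72.4, 80.2 and 71.0 RPKM in CTL and 81.5, 61.2 and 82.5 RPKM in H2A.Z dKO (chr9:64021154-64021293). Rpl37a, a zinc-binding protein of the large subunit, had 103, 99.8 and 81.5 RPKM in CTL and 92.4, 80.8 and 89.3 RPKM in H2A.Z dKO (chr1:72757688-72757910). The groups overlapped in these 3 genes, and Rpl38, the other gene among the lowest 4, is described with its change. The 4 X-linked genes, Rpl10, Rpl36a, Rpl39 and Rps4x, had a median of 111 ± 1.84 RPKM (SD, n = 3) in CTL and 102 ± 8.62 RPKM (SD, n = 3) in H2A.Z dKO, below the median of all lead intervals.

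Before the comparison, the floxed segment was read in every library. The 2 intervals between exons 2 and 4 of H2afz, the gene of H2A.Z-1, gave 79, 69 and 33 fragment ends for CTL and 57, 52 and 64 for H2A.Z dKO, which is 12.4 ± 2.83 and 11.3 ± 1.28 CPM (SD, n = 3; p = 0.6 in a two-sided exact permutation test that can reach 0.1 at best), and the floxed exons of H2afv held 0 intervals. These counts did not tell the groups apart, so H2A.Z dKO stands below for the libraries labelled H2A.Z dKO. The study reported the depletion of H2A.Z in muscle by RT-qPCR, western blot and immunofluorescence. The few counts here, from nuclei that can include cell types without Cre, cannot test that depletion. Fibre genes marked the nuclei, with intervals at 8 of 10 markers (Ckm, Acta1, Ttn, Tnnt3, Tnni2, Myh4, Des and Pvalb) that summed to 362 to 488 CPM in CTL and 382 to 506 CPM in H2A.Z dKO. Endothelial markers, at 5 of 8 genes, summed to 97.5 to 110 CPM in CTL and 79.2 to 93.0 CPM in H2A.Z dKO, fibroblast markers, at 4 of 6, to 77.3 to 95.01 and 92.2 to 104 CPM, and satellite cell markers, at Cdh15 alone of 4, to 27.9 to 45.9 and 41.3 to 51.1 CPM, while none of 6 macrophage markers had an interval. In the edgeR fit described below, the median log2 fold change was 0.13 over 18 fibre and -0.31 over 9 endothelial marker intervals. It was 0.30 over 6 fibroblast and 0.28 over 2 satellite cell marker intervals. None passed the adjusted threshold, and 2 endothelial ones were lower at an unadjusted p under 0.05 by edgeR, against 2.31% of all intervals. In bulk nuclei a change in accessibility per nucleus and a change in the share of a cell type cannot be told apart, and the part of these markers in the results was not tested.

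No ribosomal protein interval passed the test for a change in H2A.Z dKO. In the quasi-likelihood test of edgeR, adjusted by Benjamini-Hochberg over all 39768 intervals, 0 of 181 passed the threshold of 0.05, as did 0 of all intervals (0%). The lowest adjusted p was 0.972 among the members and 0.615 in the table. At an unadjusted p under 0.05 there were 3 members higher in H2A.Z dKO, against 2.64% of all intervals in this direction, and 2 lower, against 2.31%, so the total was 5 (2.76%), against 4.95% of all intervals. DESeq2 also called 0 members, with 1 at an unadjusted p under 0.05, against 1.90% of all intervals in that fit. The 3 H2A.Z dKO libraries all lay above the 3 CTL libraries in 6 members (3.31%, against 5.22% of all intervals) and all below in 7 members (3.87%, against 5.63%). The 3 members higher at an unadjusted p under 0.05, and 5 of the 6 without overlap, are intervals that the authors list for H2A.Z dKO alone, and so entered the table through the group where they are high.

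The size of change that these libraries could show was small at the lead intervals. The log2 fold change had a median of 0.01 over the 76 lead intervals, its median absolute value was 0.06, and 40 of 76 were above 0. A change of 1.5-fold or more in either direction lay outside the 95% confidence interval for 73 of 76 genes (96.1%), the exceptions being Rpl32, Rpl36 and Rpl38, and a 2-fold change lay outside it for all 76. Among lead intervals of other protein-coding genes, 81.4% had a confidence interval within 1.5-fold, and their median log2 fold change was -0.01. Large and small subunit genes had medians of 0.01 each, with 24 of 47 and 15 of 28 genes above 0. Genes that host snoRNAs had a median of 0.02 and those without of 0.00, and genes with an ETS core one of 0.05 against 0.00 for those without. These medians are descriptions and were not tested against each other.

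**Figure D4:**
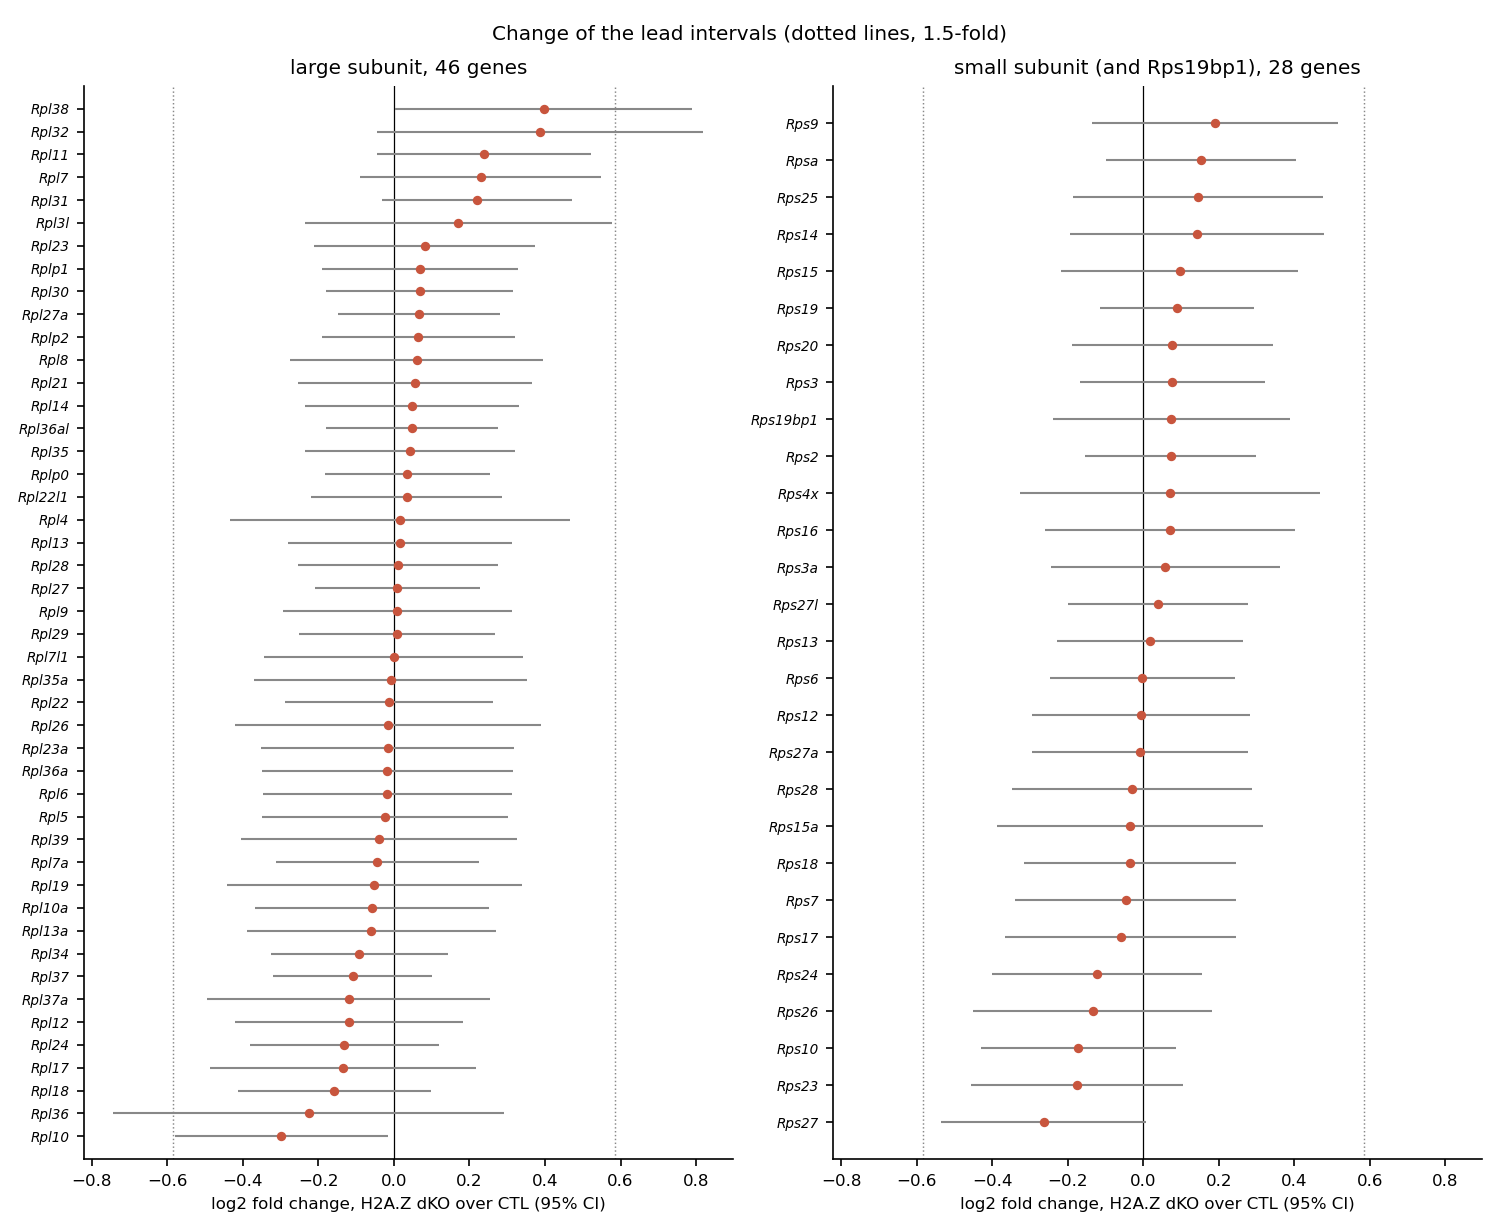
log2 fold change of the lead interval (H2A.Z dKO over CTL, red points) with its 95% confidence interval (grey lines, edgeR) for 46 genes of the large subunit (left) and 27 of the small subunit with Rps19bp1 (right). All points lie between -0.30 (Rpl10) and 0.40 (Rpl38), and 71 of 74 confidence intervals stay between the dotted lines at a 1.5-fold change.

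The ribosomal stalk, which recruits the elongation factors, is built from Rplp0 at its base and the acidic proteins Rplp1 and Rplp2. Rplp0 had 185, 203 and 176 RPKM in CTL and 199, 189 and 190 RPKM in H2A.Z dKO (chr5:116009223-116009764), a log2 fold change of 0.04 (SE 0.11, 95% CI -0.18 to 0.25). Rplp1 had 129, 158 and 130 RPKM in CTL and 130, 142 and 166 RPKM in H2A.Z dKO (chr9:61762155-61762610), a log2 fold change of 0.07 (SE 0.13, 95% CI -0.19 to 0.33). Rplp2 had 193, 182 and 180 RPKM in CTL and 192, 196 and 193 RPKM in H2A.Z dKO (chr7:148633059-148633330), a log2 fold change of 0.06 (SE 0.12, 95% CI -0.19 to 0.32). The groups overlapped in all 3 genes, and Rplp1 was the lowest of them in every library.

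Of the large subunit, Rpl38, known for its part in translating Hox mRNAs, had the largest positive change. Its lead interval lay 480 bp downstream of the TSS (chr11:114530311-114530529), with 59.0, 75.95 and 81.7 RPKM in CTL and 88.6, 100 and 93.7 RPKM in H2A.Z dKO. Every H2A.Z dKO library was above every CTL library, and the log2 fold change was 0.40 (SE 0.19, 95% CI 0.00 to 0.79, adjusted p = 0.972 by edgeR). The authors list this interval and 2 of its other 3 for H2A.Z dKO alone, so they entered the table through the group where they are high and their direction supports nothing. The interval over its TSS, listed for both groups, gave 0.30 (SE 0.21). Rpl32, its lead interval also listed for H2A.Z dKO alone, had 118, 128 and 69.2 RPKM in CTL and 139, 150 and 131 RPKM in H2A.Z dKO, a log2 fold change of 0.39 (SE 0.21, 95% CI -0.04 to 0.82). The groups did not overlap, and CTL replicate 3 stood well below the other CTL libraries. Without it the log2 fold change was 0.19. Rpl11, which with Rpl5 and the 5S rRNA forms the particle that can bind Mdm2 and so stabilise p53, had 150, 155 and 139 RPKM in CTL and 161, 172 and 194 RPKM in H2A.Z dKO (chr4:135609250-135609513), a log2 fold change of 0.24 (SE 0.14, 95% CI -0.05 to 0.52). Its partner Rpl5 was at 122 ± 13.7 RPKM (SD, n = 3) in CTL and 121 ± 7.62 RPKM (SD, n = 3) in H2A.Z dKO.

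In the other direction, Rpl10, which joins the large subunit late in its assembly and sits near the peptidyl transferase centre, had 130, 148 and 132 RPKM in CTL and 107, 116 and 111 RPKM in H2A.Z dKO (chrX:71515471-71515810). All H2A.Z dKO libraries lay below all CTL libraries, with a log2 fold change of -0.30 (SE 0.14, 95% CI -0.58 to -0.02, adjusted p = 0.972 by edgeR). This interval lies 510 bp upstream of the TSS. The interval of Rpl10 next to the TSS (chrX:71515930-71516202), chosen after its values were seen, had 162, 166 and 159 RPKM in CTL and 145, 138 and 120 RPKM in H2A.Z dKO, also without overlap, with a log2 fold change of -0.27 (SE 0.14, 95% CI -0.56 to 0.02).

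Of the small subunit, Rps27, Rps10 and Rps23 had the smallest p among the log2 fold changes below 0, and none passed the adjusted threshold. Rps27, a zinc finger protein, had 130, 134 and 149 RPKM in CTL and 95.3, 128 and 121 RPKM in H2A.Z dKO (chr3:90017324-90017757, which also covers the start of Rab13), a log2 fold change of -0.26 (SE 0.13, 95% CI -0.54 to 0.01), and its groups did not overlap. Rps10 had 128, 143 and 155 RPKM in CTL and 129, 121 and 126 RPKM in H2A.Z dKO (chr17:27772083-27772508), a log2 fold change of -0.17 (SE 0.12, 95% CI -0.43 to 0.09). Rps23, a protein of the decoding centre, had 203, 204 and 190 RPKM in CTL and 185, 165 and 177 RPKM in H2A.Z dKO (chr13:91062332-91062560), a log2 fold change of -0.18 (SE 0.14, 95% CI -0.46 to 0.10). The RPKM of Rps23 did not overlap between the groups, whereas its TMM-scaled counts did. Rps6, which S6 kinase phosphorylates downstream of mTOR, had 170, 189 and 186 RPKM in CTL and 168, 186 and 190 RPKM in H2A.Z dKO (chr4:86503152-86503482), a log2 fold change of 0.00 (SE 0.12, 95% CI -0.25 to 0.24). Rpsa, also known as the laminin receptor, had 176, 172 and 151 RPKM in CTL and 186, 161 and 209 RPKM in H2A.Z dKO (chr9:120036543-120036964), a log2 fold change of 0.15 (SE 0.12, 95% CI -0.10 to 0.40).

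Several ribosomal proteins have paralogs, some but not all of which are made in a few tissues only. Of the 8 paralogs in the list, 5 had an interval. Rpl3l, which takes the place of Rpl3 in skeletal muscle and heart, had 199, 153 and 163 RPKM in CTL and 187, 214 and 185 RPKM in H2A.Z dKO (chr17:24869554-24869635), a log2 fold change of 0.17 (SE 0.20, 95% CI -0.24 to 0.58). Its lead interval is 82 bp wide and overlaps the start inside the gene, and the groups overlapped. The interval next to its first start (chr17:24864793-24864860) had 224, 92.1 and 246 RPKM in CTL and 183, 249 and 164 RPKM in H2A.Z dKO, a log2 fold change of 0.08 (SE 0.28), also with overlap. For Rpl3 the nearest interval of the table lay 7875 bp from a TSS. Rpl22l1 was at 164 ± 9.84 RPKM (SD, n = 3) in CTL beside 183 ± 19.96 RPKM (SD, n = 3) for Rpl22, Rps27l at 152 ± 13.6 RPKM (SD, n = 3) beside 138 ± 9.74 RPKM (SD, n = 3) for Rps27, and Rpl7l1 at 143 ± 7.35 RPKM (SD, n = 3). Rpl10l, Rpl39l and Rps4y2, the others of the list, had no interval within 1 kb. Gnb2l1, a ribosomal protein under another name, had a log2 fold change of 0.10 (SE 0.15), and Fau had no interval.

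Mutations of many human ribosomal protein genes cause Diamond-Blackfan anaemia, a failure of red cell production. Of 19 mouse genes of this kind, 17 had a lead interval, and Rpl15 and Rps29 had none. Their median was 150 ± 4.64 RPKM (SD, n = 3) in CTL and 158 ± 12.4 RPKM (SD, n = 3) in H2A.Z dKO, with 0 called and 5 of 17 log2 fold changes above 0 (median -0.03). Rps19, the gene most often mutated, was among the most accessible of all members, at 243 ± 6.88 RPKM (SD, n = 3) in CTL and 258 ± 22.0 RPKM (SD, n = 3) in H2A.Z dKO, over the widest interval.

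The 3 remaining intervals at an unadjusted p under 0.05 were narrow, and were chosen after their values were seen. Those of Rps20 and Rps12 are listed for H2A.Z dKO alone and that of Rpl34 for CTL alone, in each case the group where it is high. At Rps20 an interval of 19 bp, 49 bp downstream of its TSS, had 3, 10 and 8 fragment ends in CTL and 16, 16 and 20 in H2A.Z dKO (log2 fold change 1.17, SE 0.39). At Rps12 an interval 214 bp downstream of the TSS had 18, 16 and 17 in CTL and 37, 31 and 22 in H2A.Z dKO (0.69, SE 0.28). At Rpl34 an interval 308 bp upstream had 28, 17 and 24 in CTL and 15, 18 and 12 in H2A.Z dKO (-0.73, SE 0.30), where the groups overlapped. The lead intervals of these genes held far more counts and had log2 fold changes of 0.08, -0.01 and -0.09.

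The median log2 fold change over all 181 members was 0.04, beside 0.01 over all intervals, 0.01 over all protein-coding promoter intervals, 0.01 over mitochondrial ribosomal protein genes and 0.01 over proteasome genes. The 105 members that are not lead intervals had a median of 0.09, and 70 of them were above 0. More of them are listed by the authors for H2A.Z dKO alone than for CTL alone, and such intervals entered the table through the group where they are high, so this count supports no direction. In 51.4% of them H2A.Z dKO replicate 1 had the highest scaled count of the 6 libraries, against 26.3% of the lead intervals. This share was 44.8% in the second and later intervals of other promoters, so the trait is not particular to the members. The median of these 105 relative to the mean of the 6 libraries was 0.00, -0.01 and -0.02 on the log2 scale in CTL replicates 1, 2 and 3 and 0.18, -0.03 and -0.09 in H2A.Z dKO replicates 1, 2 and 3. Only H2A.Z dKO replicate 1 was above CTL, and without it their median log2 fold change was -0.04 and that of all 181 members was -0.01. Without CTL replicate 3 these medians were 0.03 and 0.02. The second and later intervals of other promoters had a median of 0.04, which became -0.05 without H2A.Z dKO replicate 1 and 0.05 without CTL replicate 3, and intervals over 10 kb from a TSS were lowest in H2A.Z dKO replicate 1 (-0.14 against 0.11 and 0.08 in the other H2A.Z dKO libraries).

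**Figure D5:**
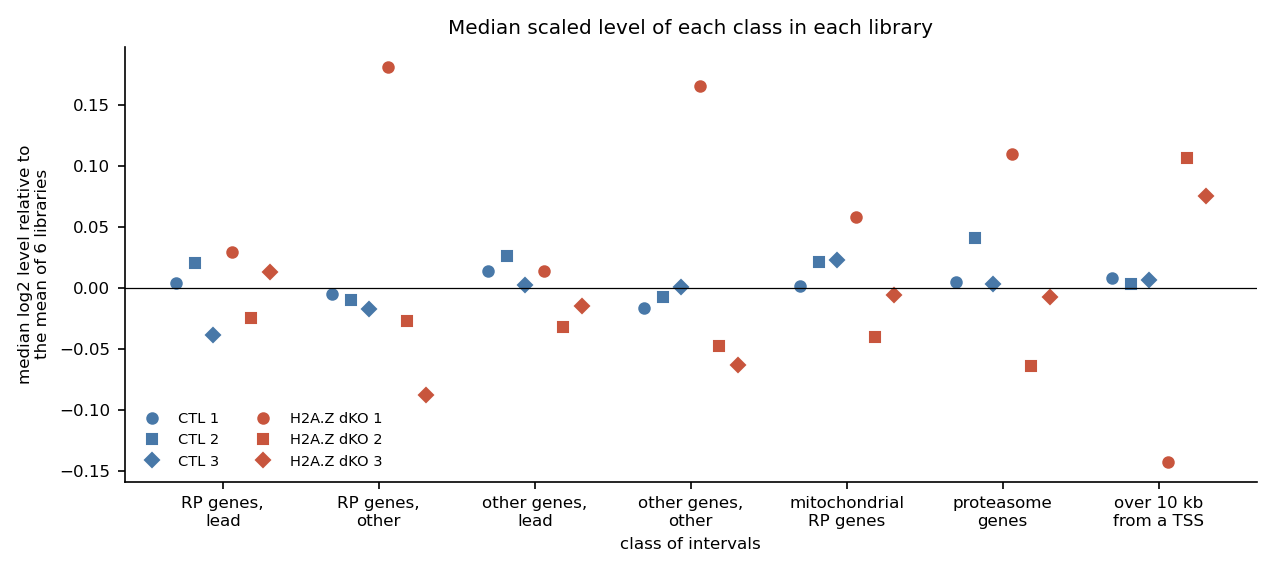
Median log2 level of each class of intervals in each library relative to the mean of 6 libraries (TMM-scaled counts; blue, CTL; red, H2A.Z dKO; circle, square and diamond for replicates 1, 2 and 3), where RP stands for ribosomal protein. H2A.Z dKO replicate 1 is high in the intervals that are not lead intervals, both of RP genes (0.18) and of other genes (0.17). It is lowest in intervals over 10 kb from a TSS (-0.14), and the lead intervals of RP genes stay between -0.04 and 0.03 in all libraries.

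Genes that work with the ribosomal proteins were described in the same fit, from lists of names, and 0 of their intervals passed the adjusted threshold. Counts at an unadjusted p under 0.05 are given for each list, beside 2.64% of all intervals higher and 2.31% lower. Initiation factors had 96 intervals at 35 of 36 genes, with a median log2 fold change of 0.01 and 0 at an unadjusted p under 0.05. Elongation factors and other TOP mRNAs had 20 intervals at 10 of 12 genes (median 0.01, 0 under 0.05), among them Eef1a1, the main elongation factor of most cells, at 195 ± 15.9 RPKM (SD, n = 3) in CTL and 195 ± 3.71 RPKM (SD, n = 3) in H2A.Z dKO, and Eef1a2, its muscle and nerve form, at 159 ± 30.1 and 174 ± 33.0 RPKM (SD, n = 3). Ribosome biogenesis factors had 90 intervals at 43 of 46 genes (median 0.01, 1 higher and 1 lower). Subunits and factors of RNA polymerase I, which makes ribosomal RNA, had 36 intervals at 14 of 15 genes (median -0.06, 0 under 0.05). Genes of the mTOR and Larp1 axis had 30 intervals at 14 of 14 genes (median 0.05), with 1 higher, that of Eif4ebp2, a repressor of cap-dependent translation, at 156 ± 2.67 RPKM (SD, n = 3) in CTL and 193 ± 44.7 RPKM (SD, n = 3) in H2A.Z dKO. Factors of ribosomal protein promoters had 25 intervals at 10 of 11 genes (median 0.00, 0 under 0.05), with Gabpa, the ETS factor, at 278 ± 10.7 and 278 ± 24.2 RPKM (SD, n = 3).

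The authors' own list assigns each interval to both groups or to 1 of them. Of the members, 102 were listed for both groups, with a median of 150 ± 0.943 RPKM (SD, n = 3) in CTL and 151 ± 6.33 RPKM (SD, n = 3) in H2A.Z dKO and a median width of 256 bp. The 50 listed for H2A.Z dKO alone were narrower (81 bp), with 115 ± 8.64 RPKM (SD, n = 3) in CTL and 129 ± 8.19 RPKM (SD, n = 3) in H2A.Z dKO, and the 29 listed for CTL alone (61 bp) had 137 ± 9.88 and 126 ± 11.3 RPKM (SD, n = 3). Their median log2 fold change was 0.02 for both groups, 0.18 for H2A.Z dKO alone (42 of 50 above 0) and -0.09 for CTL alone (9 of 29 above 0). That these lists differ in direction follows from how they were made, since the peaks were called on the same libraries. Of the lead intervals, 66 of 76 were listed for both groups. Rpl3l, Rpl7, Rpl32, Rpl38 and Rps19bp1 had lead intervals listed for H2A.Z dKO alone, and Rpl13, Rpl13a, Rpl19, Rpl36 and Rps4x for CTL alone, though all had counts in every library.

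Rpl7 had the most pieces. Of its 9 intervals 7 overlap another, and those more than 500 bp upstream lie towards the start of Rdh10, an enzyme of retinoic acid synthesis. Its lead interval (chr1:16095022-16095554) was at 132 ± 5.91 RPKM (SD, n = 3) in CTL and 154 ± 41.3 RPKM (SD, n = 3) in H2A.Z dKO, with a log2 fold change of 0.23, a spread among the H2A.Z dKO libraries wider than the difference. Near the edge of the rule, a member 731.5 bp from the TSS of Rpl24 had 163 ± 12.0 RPKM (SD, n = 3) in CTL and 166 ± 17.3 RPKM (SD, n = 3) in H2A.Z dKO. Just outside were an interval 1016 bp from Rps18 with 114 ± 7.08 RPKM (SD, n = 3) in CTL and 95.03 ± 10.2 RPKM (SD, n = 3) in H2A.Z dKO, and one 1117 bp from Rpl7 with 139 ± 6.86 and 161 ± 24.8 RPKM (SD, n = 3).

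Near-identical copies limit which gene a fragment end can be given to, since ribosomal protein genes have many processed pseudogenes. Of the 181 intervals, 44 (32 lead intervals, among them Rpl31 with 9 and Rps28 with 12) have at least 1 match of 90% identity over 50 bp elsewhere in mm9. The median log2 fold change was 0.01 in these and 0.06 in the other 137. Lead intervals had a median of 0.01 and the other members 0.09, so a part of copies and the split by lead interval cannot be told apart here.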

How the data were processed

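ATAC-seq of 3 CTL and 3 H2A.Z dKO libraries was analysed. The authors trimmed adapters (Trimmomatic), aligned read pairs to mm9 (Bowtie2 in the labels, version not given in the sources used here), removed duplicates (Picard), shifted fragment ends for Tn5, called peaks (MACS2), merged those of both groups and deposited raw counts of fragment ends per interval and library. Columns of their own DESeq2 comparison were not used, and 0 columns of samples were left out. Library totals were 3520008 to 6117245 counts, and errors cover counting and the spread between 3 libraries only.

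Intervals were annotated with GENCODE vM1 by their midpoint. edgeR 4.0.16 (TMM, robust quasi-likelihood, no block) in R 4.3.3 was fitted to all intervals and tested on simulated data. RPKM used the width and the total of all intervals of a library. Copies were searched with blastn 2.17.0, and tables were handled with pandas 2.3.3 and pysam 0.24.0. Members, lists and tests were chosen with earlier results of these data known, and the groups by role, the split by lead interval and the RefSeq starts were added after seeing values. Named are Rplp0, Rplp1, Rplp2, Rpsa, Rpl41, Rps6, Rpl3 and Rpl3l and, by lead interval, the 4 highest and 4 lowest in mean RPKM and the 4 with the smallest p in each direction. Some genes, 1 of them picked by this rule, and 1 promoter are not reported here. Other genes were chosen after their values were seen. Alternatives were DESeq2 1.42.0, other scalings, a count filter, a replicate block, each library left out, other member rules and sums per gene.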

Additional observations from a re-analysis of the deposited data

How the results depend on the processing

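The count of 0 adjusted calls among the members held under every alternative. The number at an unadjusted p under 0.05 was 5 and (4.95% of all intervals were) and became 1 with DESeq2 (1.90% of all), 2 with at least 20 counts in every library (155 members left; 3.5% of all), 2 with counts summed per gene (4.95% of all), 3 with the replicate block (4.42% of all), and 2 to 8 when one library was left out (3.18% to 7.95% of all). The median log2 fold change of the members, 0.04, was 0.05 with the replicate block and -0.01 to 0.06 with one library left out, below 0 only without H2A.Z dKO replicate 1 and 0.02 without CTL replicate 3. Deviations of same-numbered libraries from their group means correlated at -0.12, -0.08 and -0.06. Such weak values show no pairing by number, but they cannot exclude that these libraries were handled together. A width of 73 bp more, to allow for the extension of the counted ends, gave a median of 88.3 RPKM in CTL and 89.5 in H2A.Z dKO. With the bare width these medians were 138 and 141 RPKM.

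Of 247 alternative values of the 19 named genes, 231 kept their sign. The sign turned for Rps6 with the filter (0.0077) and loess offsets (0.015), and for Rpl4 with loess offsets (-0.0013) and sums per gene (-0.12). With one library left out, the log2 fold change ran from -0.049 to 0.031 for Rps6, from -0.071 to 0.15 for Rpl4, from -0.013 to 0.098 for Rplp0, from -0.033 to 0.17 for Rplp1, from -0.012 to 0.11 for Rpl36al and from -0.045 to 0.28 for Rps25. With all libraries, values of these genes also moved by over 1.5 times without a turn of sign. This held for Rplp0 with loess offsets (0.064) and sums per gene (0.054), and Rplp1 with sums per gene (0.032). It held for Rpl36al with loess offsets (0.073) and sums per gene (0.094), and Rpl4 with the filter (0.028) and the replicate block (0.0087). Rps6, close to 0, moved so in several settings. Among the genes that kept their sign throughout, the value moved by over 1.5 times for Rpl31 without H2A.Z dKO replicate 1 (0.090), Rpl38 without CTL replicate 1 (0.26), Rpl32 without CTL replicate 3 (0.19) and with sums per gene (0.26), Rps27 without H2A.Z dKO replicate 1 (-0.16), Rps10 without CTL replicate 3 (-0.11), Rplp2 without CTL replicate 1 (0.10) and with sums per gene (0.11), Rpsa without CTL replicate 3 (0.092) or H2A.Z dKO replicates 2 (0.25) or 3 (0.061), Rps4x without H2A.Z dKO replicates 1 (0.024) or 3 (0.11), Rpl3l without CTL replicates 1 (0.31) or 2 (0.091) or H2A.Z dKO replicate 2 (0.11), and Rpl37a without CTL replicates 1 (-0.054) or 3 (-0.21) or H2A.Z dKO replicates 1 (-0.19) or 2 (-0.057). The cause was not tested. Depth limits the narrow members: 26 of 181 had under 20 counts in a library, and 0 of these was a lead interval.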
